A study of Mus musculus with 6 samples.

Results

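Cholesterol that enters a steroid-producing cell is taken up, freed in lysosomes, stored as ester in lipid droplets, released again or exported, and 39 genes of these steps are described here in MA-10 cells depleted of COUP-TFII. The rule that chose them uses names and functions and no measured value, but it was set with earlier results of these data known: 4 uptake receptors, 4 genes of lysosomal handling, 5 of cholesteryl ester turnover, 5 of efflux and its LXR regulators, 9 oxysterol-binding proteins, 5 perilipins, 3 CIDE proteins and 4 genes of triglyceride turnover. All 39 had exactly 1 probe set, out of 25072 genes with a symbol on the array. The probe set of Nceh1 also names the predicted gene Gm42192, so its value may hold both transcripts.

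MA-10 is a mouse Leydig tumour line, and COUP-TFII is an orphan nuclear receptor encoded by Nr2f2. There were 3 arrays of cells transfected with an siRNA against COUP-TFII and 3 arrays of cells transfected with a control siRNA, labelled as biological replicates and all given the siRNA for 48 h. Cells of both groups grew in medium with horse serum. Total RNA was read on Affymetrix arrays, and all values below are normalized log2 signals as deposited, so that a difference (COUP-TFII siRNA minus control siRNA) of 1 is a doubling. The model is 1 tumour line after transient transfection, and the knockdown was partial.

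Leydig cells make steroids from cholesterol, which they draw from their own synthesis, from lipoproteins in serum and from cholesteryl ester kept in lipid droplets. The perilipins coat these droplets and govern the access of lipases, the SOAT enzymes form the ester, and hormone-sensitive lipase (Lipe) breaks it down. Excess sterol is sensed by the LXR receptors, which turn on the exporters ABCA1 and ABCG1, while oxysterol-binding proteins move sterols and phosphoinositides between membranes.

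The siRNA target was lower in its own arrays. Nr2f2 had log2 signals of 8.25, 8.42 and 8.56 in COUP-TFII siRNA arrays, against 8.98, 8.97 and 9.19 in control siRNA arrays. Its difference of -0.63 (SE 0.09, n = 3 per group) left 64.4% of the control signal, with a limma adjusted p of 0.00802 and an exact 2-sided permutation p of 0.1, the smallest that 3 arrays against 3 allow. Array medians were 7.59 to 7.60 with COUP-TFII siRNA and 7.56 to 7.57 with control siRNA. All 6 measured Leydig cell markers lay above the median signal of the array, and 4 of them fell (Star, Cyp11a1, Lhcgr and Hsd3b1). These 4 had a limma adjusted p under 0.05. Above the median signal, 5.37% of all probe sets were lower at that threshold and 2.78% higher. The other 2 Leydig markers were not called: Cyp17a1 stood at 0.34 (adjusted p 0.201, unadjusted p under 0.05) and Nr5a1 at -0.02 (adjusted p 0.898). Of 20 markers of adipocytes, macrophages, Sertoli cells and hepatocytes, 17 lay below the median signal, including 6 of 6 for adipocytes and 4 of 4 for hepatocytes. The 3 above it were Cd68 of macrophages and Sox9 and Dhh of Sertoli cells. None of the 20 passed the test. Below the median signal, only 0.47% of all probe sets passed it as lower and 0.395% as higher. At an unadjusted p under 0.05, 3 of the 20 were lower and 5 higher, against 9.86% lower and 9.42% higher of all probe sets. The part of the Leydig marker falls in the values below was not tested. In these bulk RNA samples, fewer cells of a type and less RNA per cell cannot be told apart.

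Plin2, Plin5, Abca1, Cd36 and Scarb1 fell after COUP-TFII siRNA, each to between 80.6% and 87.4% of its control signal, and no gene of the 39 rose. A gene was called where its limma p, adjusted over 26836 probe sets, was under 0.05. The 5 calls are 12.8% of the 39 genes, which were picked as a group with earlier results known, and 2.92% of all probe sets were called lower. Among all probe sets 1.59% were called higher. Calls were more frequent among bright probe sets: above the median signal, where 33 of the 39 genes lie, 5.37% of all probe sets were called lower and 2.78% higher. Vldlr, Ces1d, Abcg1, Osbpl3, Cidea and Cidec lay below the median signal, where 0.47% of all probe sets were called lower and 0.395% higher. At an unadjusted limma p under 0.05, 12 of the 39 genes were lower and 2 higher, against 9.86% and 9.42% of all probe sets.

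The 2 groups of arrays did not overlap for 14 genes that were lower after COUP-TFII siRNA, or 35.9% of the 39, and for 2 that were higher, or 5.13%. Over all probe sets these shares were 12.2% lower and 13% higher, with 20.7% lower without overlap above the median signal and 3.68% below it. The median difference of the 39 genes was -0.03, with 23 below 0, against a median of 0.01 over all probe sets. Among the 33 brighter genes the median was -0.04 and 45.5% had a difference below -0.1, whereas all 13418 probe sets above the median signal had a median of -0.01 and 22.5% below -0.1. In the plot of all 39 differences the 5 lowest values are those of Cd36, Abca1, Plin5, Plin2 and Plin3. For 26 of the 34 genes not called, the 95% interval lay within a 1.2-fold change in either direction.

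**Figure D1:**
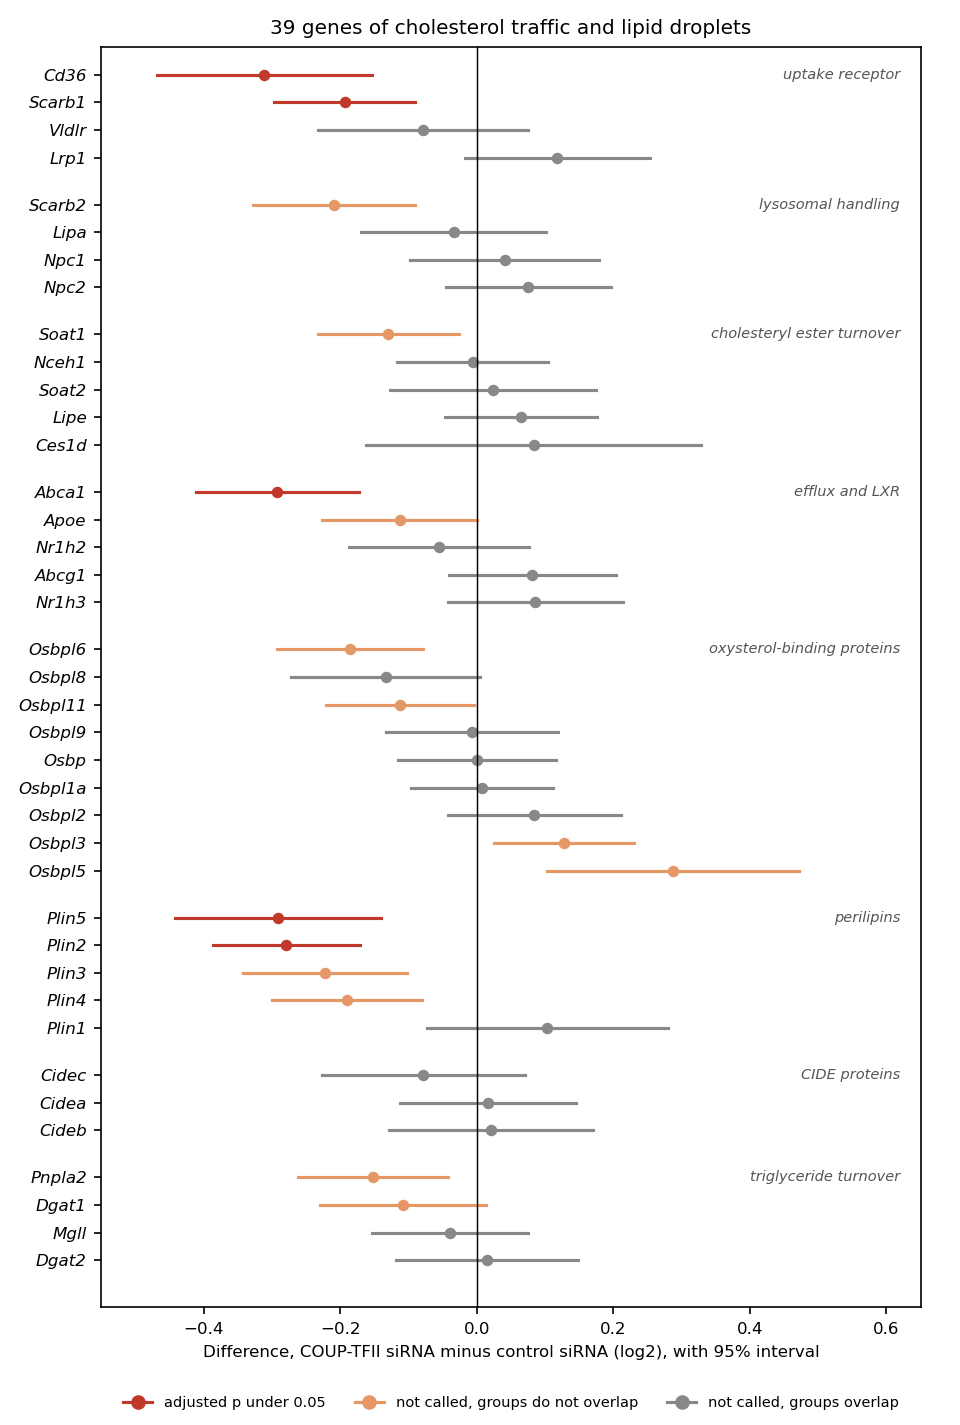
Difference in log2 signal (COUP-TFII siRNA minus control siRNA, horizontal axis) of the 39 genes, grouped by role, with 95% intervals from limma (n = 3 arrays per group). Red marks the 5 genes called lower, orange the genes not called whose groups do not overlap, and grey the 23 genes whose groups overlap, which lie between -0.13 and 0.12.

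**Figure D2:**
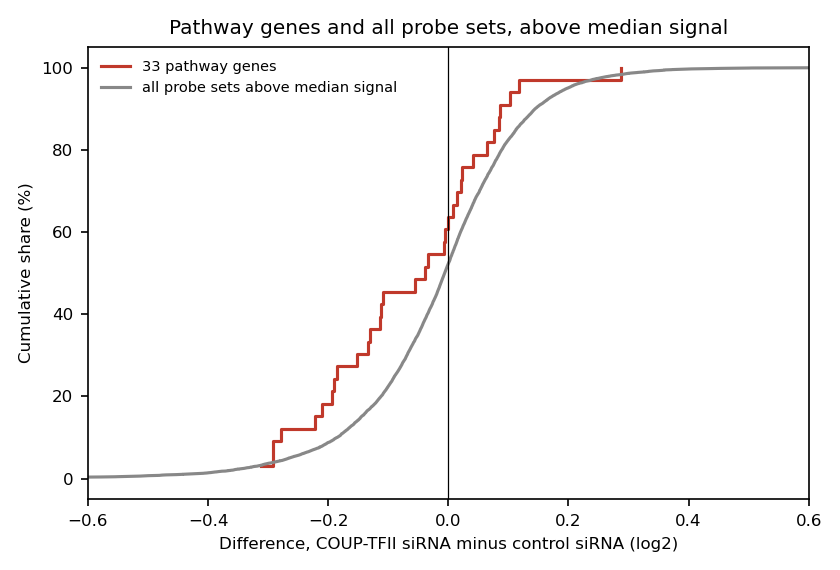
Cumulative share (vertical axis, percent) of the 33 genes above the median signal and of all 13418 probe sets above it, against the difference in log2 signal, COUP-TFII siRNA minus control siRNA. The curve of the 33 genes is higher on the left, with 45.5% of them below -0.1, against 22.5% of all these probe sets.

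Promoter sequences are shown for the 4 called genes that had one in the RefSeq table, because COUP-TFII is known to bind pairs of the hexamer AGGTCA. Each runs 5′ to 3′ on the gene's own strand, from 250 bases before to 50 bases after the annotated start, in build GRCm38.p6, and capitals mark the hexamer on either strand. The Plin2 promoter is chr4:86670010-86670309 on the minus strand, that of Plin5 chr17:56117499-56117798 on the minus strand, that of Cd36 chr5:17835847-17836146 on the minus strand and that of Abca1 chr4:53159846-53160145 on the minus strand.
Plin2: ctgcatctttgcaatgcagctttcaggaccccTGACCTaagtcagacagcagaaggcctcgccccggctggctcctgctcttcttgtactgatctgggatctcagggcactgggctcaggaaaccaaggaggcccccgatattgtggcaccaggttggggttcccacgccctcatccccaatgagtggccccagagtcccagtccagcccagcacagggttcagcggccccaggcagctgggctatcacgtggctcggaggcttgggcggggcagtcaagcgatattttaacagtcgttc
Plin5: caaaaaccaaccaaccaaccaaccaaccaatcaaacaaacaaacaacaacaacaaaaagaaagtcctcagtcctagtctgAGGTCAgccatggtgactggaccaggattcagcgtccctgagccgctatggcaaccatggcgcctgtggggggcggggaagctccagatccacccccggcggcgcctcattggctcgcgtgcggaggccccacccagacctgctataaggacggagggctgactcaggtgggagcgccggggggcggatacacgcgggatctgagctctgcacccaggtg
Cd36: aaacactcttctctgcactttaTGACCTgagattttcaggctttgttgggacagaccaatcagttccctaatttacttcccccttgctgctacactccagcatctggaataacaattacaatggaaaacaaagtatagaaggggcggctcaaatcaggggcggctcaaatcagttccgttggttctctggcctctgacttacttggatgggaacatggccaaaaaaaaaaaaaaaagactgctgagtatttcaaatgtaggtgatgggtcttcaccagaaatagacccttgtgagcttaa
Abca1: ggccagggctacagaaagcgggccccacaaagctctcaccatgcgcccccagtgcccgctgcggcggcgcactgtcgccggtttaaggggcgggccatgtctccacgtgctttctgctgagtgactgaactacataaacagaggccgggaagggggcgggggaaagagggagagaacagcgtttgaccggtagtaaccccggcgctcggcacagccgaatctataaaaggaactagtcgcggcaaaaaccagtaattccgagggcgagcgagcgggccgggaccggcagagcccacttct
The hexamer begins at position -218 in Plin2, -170 in Plin5 and -228 in Cd36, with the annotated start as 0, and it reads TGACCT in Plin2 and Cd36. A second annotated start of Plin5 has it 13 bases downstream. Promoters were found for 30 of the 39 genes. Of these, 4 held the hexamer: 3 of the 4 called genes and 1 of the 26 not called, Osbpl2. These are counts of genes, any of whose annotated starts may hold it, whereas 16.3% is the share among all 32851 promoters, of 27025 genes, and the same holds for the motifs that follow. Whether the hexamer went with a call was not tested. A match is a run of letters in this window and not a binding site.

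Direct repeats of the hexamer were searched on both strands with no base between them (AGGTCAAGGTCA), 1 base (AGGTCANAGGTCA), 2 bases (AGGTCANNAGGTCA) or 4 bases (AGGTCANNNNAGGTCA). None of the 30 promoters held any of these, which occur in 0.00609%, 0.0396%, 0.00913% and 0.0152% of all promoters. The longer CAAGGTCA, which contains the hexamer and is the form read by steroidogenic factor 1, was in Osbpl2 alone and in 1.56% of all promoters. The E-box CACGTG was in 7 of the 30 (Abca1, Lipe, Mgll, Nceh1, Osbpl5, Osbpl8 and Plin2) and in 7.15% of all promoters. The core TCACGTGA of the CLEAR element of lysosomal genes, which contains the E-box, was in Osbpl8 only, against 0.974% of all promoters. CCAAT was in 17 of the 30, against 37.4% of all promoters, and TATAAA in 4 (Abca1, Apoe, Cideb and Lipa), against 13.6%. The cyclic AMP element TGACGTCA was in Osbpl9, against 1.79% of all promoters. The antioxidant core TGACNNNGC was in 6 genes that were not called, against 12.4% of all promoters. The core CACCCCAC of the sterol regulatory element was in none of the 30 and in 2.87% of all promoters.

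Perilipins 2 and 5 fell. Perilipin 2, which coats droplets in most cell types, had signals of 10.76, 10.71 and 10.70 in COUP-TFII siRNA arrays, against 11.02, 11.03 and 10.95 in control siRNA arrays. All COUP-TFII siRNA arrays lay below all control arrays, with a gap of 0.196 between the groups. The difference of -0.28 (SE 0.05, 95% interval -0.39 to -0.17) left 82.4% of the control signal, with an adjusted p of 0.0164. Perilipin 5, known for linking droplets to mitochondria in oxidative tissues, had 9.31, 9.14 and 9.29 in COUP-TFII siRNA arrays, against 9.63, 9.45 and 9.54 in control siRNA arrays. Its groups were 0.133 apart, and the difference of -0.29 (SE 0.07, 95% interval -0.44 to -0.14) left 81.7% of the control signal, with an adjusted p of 0.045. The Plin2 call was lost without COUP-TFII siRNA replicate 1, 2 or 3 (adjusted p 0.0501, 0.0776 and 0.0612). The Plin5 call held without control replicate 2 (0.047) and was lost without any other single array, with adjusted p between 0.0873 and 0.152.

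Perilipins 3 and 4 also had groups that did not overlap, but missed the threshold. Perilipin 3, a protein that moves from the cytosol to nascent droplets, had 9.97, 9.88 and 9.97 in COUP-TFII siRNA arrays, against 10.22, 10.11 and 10.15 in control siRNA arrays, a difference of -0.22 (SE 0.05, adjusted p 0.0525). For perilipin 4 the signals were 7.87, 7.85 and 7.94 in COUP-TFII siRNA arrays, against 8.11, 8.08 and 8.04 in control siRNA arrays, a difference of -0.19 (SE 0.05, adjusted p 0.0652). Perilipin 1, the lipase-gating coat of adipocytes, was the member of the family with a difference above 0. It had 8.64, 8.59 and 8.46 in COUP-TFII siRNA arrays, against 8.60, 8.45 and 8.33 in control siRNA arrays, and these groups overlapped (0.10, SE 0.08, 95% interval -0.07 to 0.28, adjusted p 0.522). The 5 perilipins had a median difference of -0.22. Whether perilipin 1 differed from the others in its response was not tested.

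**Figure D3:**
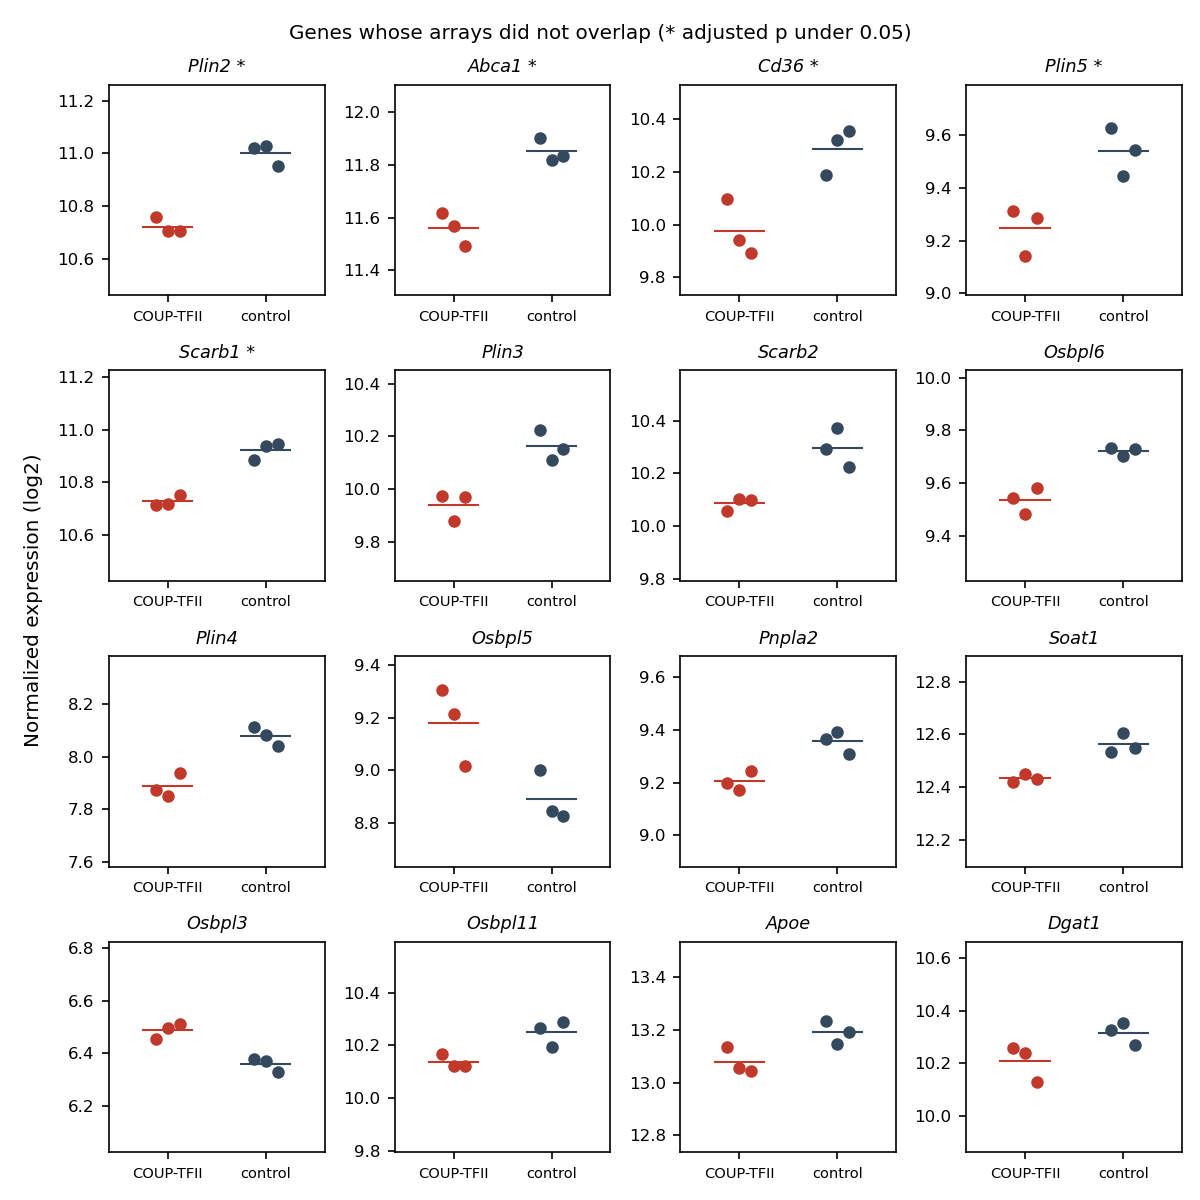
Log2 signal in each array (vertical axis, each panel spanning 0.8) of the 16 genes whose groups did not overlap, with COUP-TFII siRNA on the left and control siRNA on the right, points for arrays and lines for group means. An asterisk marks the 5 called genes, and Osbpl5 and Osbpl3 are the 2 panels in which the COUP-TFII siRNA arrays are the higher ones.

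Plin4, Plin5 and Plin3 lie close together on chromosome 17. In the RefSeq gene order Plin4 and Plin5 are adjacent, and 7 other protein-coding genes stand between Plin5 and Plin3. All 7 were measured and none was called in either direction, and neither Plin3 nor Plin4 was called. Over all probe sets 2.92% were called lower and 1.59% higher, and 12.2% were lower and 13% higher without overlap. The differences of the 7 genes ran from -0.15 for Tnfaip8l1, an apoptosis-related gene lower without overlap, to 0.19 for Sema6b, a semaphorin higher without overlap. Whether the 3 perilipins differed from the genes between them was not tested. Groups overlapped for the other 5 genes, Lrg1, Mydgf, Dpp9, Fem1a and Ticam1.

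**Figure D4:**
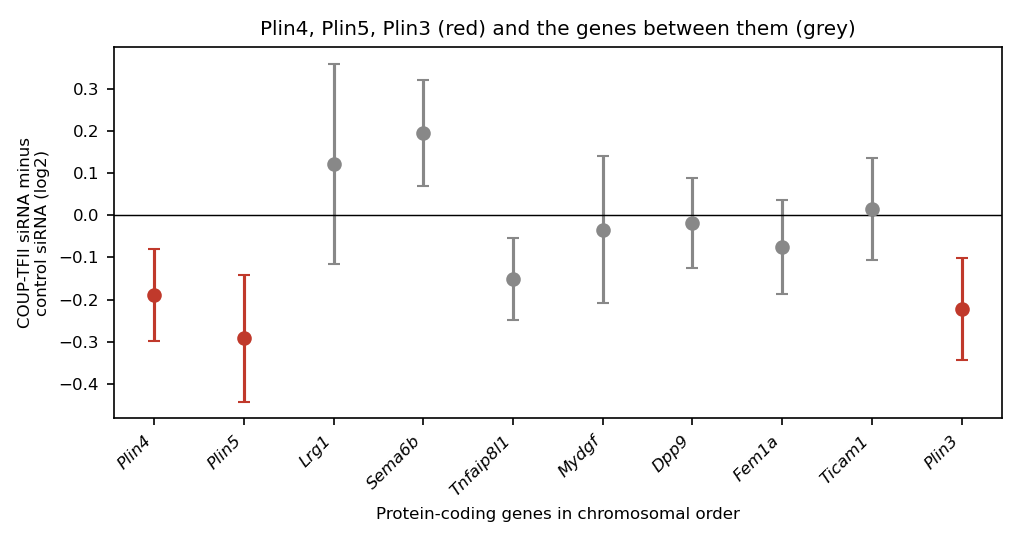
Difference in log2 signal (COUP-TFII siRNA minus control siRNA, vertical axis) with 95% intervals for the protein-coding genes from Plin4 to Plin3 on chromosome 17, in chromosomal order (horizontal axis, not to scale). The 3 perilipins lie at -0.19, -0.29 and -0.22, and of these only Plin5 was called. The 7 genes between Plin5 and Plin3 lie between -0.15 and 0.19, and none was called.

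The CIDE proteins, which promote the fusion and growth of droplets, did not pass the test. Cidec, a droplet fusion protein of fat cells, had 6.90, 7.10 and 7.11 in COUP-TFII siRNA arrays, against 7.12, 7.06 and 7.16 in control siRNA arrays. These groups overlapped (-0.08, SE 0.07, adjusted p 0.572), and Cideb and Cidea each had a difference of 0.02. All 3 had 95% intervals within a 1.2-fold change.

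No enzyme of triglyceride turnover was called. Pnpla2, the lipase ATGL that opens triglyceride breakdown, had 9.20, 9.17 and 9.24 in COUP-TFII siRNA arrays, against 9.37, 9.39 and 9.31 in control siRNA arrays. Its groups did not overlap, and its signal was 90.0% of control (-0.15, SE 0.05, adjusted p 0.123). Dgat1, an enzyme of the last step of triglyceride synthesis, was also lower without overlap, by a gap of 0.0126, with a difference of -0.11 (SE 0.05, adjusted p 0.32). Dgat2, which catalyses the same step, stood at 0.01, and Mgll, the monoglyceride lipase, at -0.04, both with overlapping groups. All 4 enzymes had 95% intervals within a 1.2-fold change.

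Of the uptake receptors, Cd36 and Scarb1 fell. Cd36, a scavenger receptor that takes up fatty acids and modified lipoproteins, had 10.10, 9.94 and 9.89 in COUP-TFII siRNA arrays, against 10.19, 10.32 and 10.36 in control siRNA arrays. The groups were 0.0904 apart, and the difference of -0.31 (SE 0.07, 95% interval -0.47 to -0.15) left 80.6% of the control signal, with an adjusted p of 0.0422. Scarb1 encodes SR-BI, the receptor through which steroid-producing cells of rodents take cholesteryl ester from high-density lipoprotein. It had 10.71, 10.72 and 10.75 in COUP-TFII siRNA arrays, against 10.88, 10.94 and 10.95 in control siRNA arrays. The arrays of each group lay within a narrow band, with a gap of 0.131 between groups, and the difference of -0.19 (SE 0.05, 95% interval -0.30 to -0.09) left 87.4% of the control signal, with an adjusted p of 0.0499.

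The endocytic receptor Lrp1 had 11.83, 11.76 and 11.68 in COUP-TFII siRNA arrays, against 11.73, 11.58 and 11.61 in control siRNA arrays, with overlap between the groups (0.12, SE 0.06, adjusted p 0.33). Vldlr, the receptor for very-low-density lipoprotein, stood at -0.08 (SE 0.07, adjusted p 0.583), also with overlap. The Cd36 call was lost without COUP-TFII siRNA replicate 2 or 3 (adjusted p 0.151 and 0.127) and without control replicate 2 or 3 (0.106 and 0.134). The Scarb1 call was lost without any single array, with adjusted p between 0.0719 and 0.161.

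No gene of lysosomal handling was called. Scarb2, the lysosomal membrane protein LIMP-2, had 10.06, 10.10 and 10.10 in COUP-TFII siRNA arrays, against 10.29, 10.37 and 10.23 in control siRNA arrays. Its groups did not overlap, and the difference was -0.21 (SE 0.05, adjusted p 0.0619). Npc1 and Npc2, which hand cholesterol out of the late endosome and lysosome, had differences of 0.04 and 0.08, and lysosomal acid lipase (Lipa), which frees cholesterol from lipoprotein ester, had -0.03. Groups overlapped for these 3 genes, and their 95% intervals lay within a 1.2-fold change.

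Of the cholesteryl ester genes, none was called. Soat1, the esterifying enzyme of most tissues, had 12.42, 12.45 and 12.43 in COUP-TFII siRNA arrays, against 12.53, 12.61 and 12.55 in control siRNA arrays. These groups did not overlap, and 91.4% of the control signal remained (-0.13, SE 0.05, adjusted p 0.159). The groups overlapped for the other 4 genes, with differences of 0.02 for Soat2, the esterifying enzyme of intestine and liver, and 0.06 for Lipe. For the ester hydrolase Nceh1 the difference was -0.01, and for the carboxylesterase Ces1d, a dim probe set, it was 0.08 (SE 0.11).

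Abca1 fell, and the other genes of efflux and its LXR control did not pass the test. ABCA1 loads cholesterol and phospholipid onto apolipoprotein A-I. Its signals were 11.62, 11.57 and 11.49 in COUP-TFII siRNA arrays, against 11.90, 11.82 and 11.84 in control siRNA arrays. The groups were 0.199 apart, and the difference of -0.29 (SE 0.05, 95% interval -0.41 to -0.17) left 81.7% of the control signal, with an adjusted p of 0.0203. This call was lost without COUP-TFII siRNA replicate 2 or 3 (adjusted p 0.0811 and 0.0699) and without control replicate 1 or 3 (0.0567 and 0.0638).

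Apoe, the apolipoprotein that carries exported sterol, had 13.13, 13.06 and 13.04 in COUP-TFII siRNA arrays, against 13.23, 13.15 and 13.19 in control siRNA arrays. Its groups were separated by 0.0112 only, and the difference of -0.11 (SE 0.05) had an adjusted p of 0.262. Abcg1, which exports sterol to high-density lipoprotein and is a classic LXR target like Abca1, stood at 0.08 (adjusted p 0.466) with overlapping groups. The receptors themselves, LXR-alpha (Nr1h3) and LXR-beta (Nr1h2), had differences of 0.09 and -0.06, also with overlap. The 95% intervals of all 4 lay within a 1.2-fold change.

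The 9 oxysterol-binding proteins held differences in both directions, and none was called. Osbpl6 had 9.54, 9.48 and 9.58 in COUP-TFII siRNA arrays, against 9.73, 9.70 and 9.73 in control siRNA arrays, without overlap (-0.19, SE 0.05, adjusted p 0.0647). Osbpl5, whose product exchanges lipids between endoplasmic reticulum and plasma membrane, had 9.30, 9.21 and 9.02 in COUP-TFII siRNA arrays, against 9.00, 8.84 and 8.83 in control siRNA arrays. Its COUP-TFII siRNA arrays were the higher ones by a gap of 0.0159, with a difference of 0.29 (SE 0.08, 95% interval 0.10 to 0.47) and an adjusted p of 0.0887. Osbpl3 was higher without overlap by 0.13 (SE 0.05, adjusted p 0.164), from a dim probe set, and Osbpl11 was lower without overlap (-0.11, SE 0.05, adjusted p 0.242). Osbpl8 stood at -0.13 (SE 0.06, adjusted p 0.277) with overlap. Osbp, the founding member that trades cholesterol for phosphoinositide at the Golgi, stood at 0.00, Osbpl1a at 0.01, Osbpl2 at 0.08 and Osbpl9 at -0.01, all with overlapping groups.

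Beyond the 39 genes, 73 of 74 further genes of the same pathways were measured, and 3 of them fell and 3 rose, or 4.11% in each direction. Over all probe sets 2.92% were called lower and 1.59% higher, and above the median signal, where 50 of the 73 lie, 5.37% and 2.78%, so these counts are near the background. Their median difference was 0.01, with 34 below 0. By step, 1 of 17 uptake genes was called lower and 1 higher, 0 of 7 genes of endolysosomal transfer lower and 1 higher, and 1 of 14 efflux genes lower and 1 higher. None of 8 sterol transfer partners was called, and of 27 genes of droplet formation and lipolysis 1 was called lower and 0 higher.

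Lrp8, a receptor that binds apolipoprotein E and reelin, had 8.42, 8.51 and 8.36 in COUP-TFII siRNA arrays, against 8.78, 8.86 and 8.77 in control siRNA arrays, a fall to 77.3% of control (-0.37, SE 0.05, adjusted p 0.00968). Hsd17b11, a dehydrogenase found on lipid droplets, had 10.34, 10.27 and 10.29 in COUP-TFII siRNA arrays, against 10.66, 10.73 and 10.57 in control siRNA arrays (-0.35, SE 0.05, adjusted p 0.0114). Apoc1, an apolipoprotein whose gene neighbours Apoe, had 11.75, 11.63 and 11.75 in COUP-TFII siRNA arrays, against 11.93, 11.94 and 11.98 in control siRNA arrays (-0.24, SE 0.05, adjusted p 0.0372). None of these 3 genes had overlapping groups. The Hsd17b11 call was lost without COUP-TFII siRNA replicate 2 (adjusted p 0.0637), and the Apoc1 call without any single array (0.0727 to 0.131). Apoc1 was also not called with all 35556 probe sets tested together or with the replicate number as a block.

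Sort1, the sorting receptor sortilin, rose to 128% of control, with 9.43, 9.33 and 9.38 in COUP-TFII siRNA arrays, against 9.02, 8.95 and 9.09 in control siRNA arrays (0.36, SE 0.05, adjusted p 0.0099). Abcg4, a sterol exporter related to Abcg1, had 10.42, 10.41 and 10.20 in COUP-TFII siRNA arrays, against 10.00, 10.03 and 9.79 in control siRNA arrays (0.40, SE 0.08, adjusted p 0.0324). Lamp1, a main membrane protein of lysosomes, had 12.73, 12.75 and 12.67 in COUP-TFII siRNA arrays, against 12.53, 12.51 and 12.50 in control siRNA arrays (0.20, SE 0.05, adjusted p 0.0447). All 3 were higher in every COUP-TFII siRNA array than in any control array. The Abcg4 call was lost without COUP-TFII siRNA replicate 1 or 2 (adjusted p 0.114 and 0.128) or control replicate 1 or 3 (0.0561 and 0.0858), and the Lamp1 call without any single array (0.075 to 0.161) and with each array centred on its median (0.0672). Both calls were also lost with all 35556 probe sets tested together, and that of Lamp1 with the replicate number as a block.

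None of the 39 genes is in the authors' deposited table of 334 changed probe sets, all of which have a fold of at least 1.30, and 1 of the 73 further genes, Lrp8, is in it. The authors' unadjusted p-values in this list are at most 0.00995, and its sums of squares fit 6 arrays in 2 groups. The table of all genes fits another design, so the list is not a cut of the ratios and p-values given from that table. Of the 26836 probe sets with a symbol, 261 (0.973%) are in the authors' changed list, whose other probe sets have no symbol. The authors' deposited table of all genes, whose sums of squares fit 12 arrays in 4 groups as the smallest design, gives ratios of COUP-TFII siRNA over control siRNA of 0.822 for Plin2, 0.819 for Plin5, 0.853 for Plin3, 0.884 for Plin4 and 1.08 for Plin1. In the authors' deposited table the ratio was 0.801 for Cd36, 0.842 for Scarb1 and 0.861 for Scarb2. After Benjamini-Hochberg adjustment of the p-values in the authors' deposited table over 26836 probe sets, 10 of the 39 genes were below 0.05 and lower, and 0 were higher, against 4.88% lower and 3.29% higher of all probe sets. These 10 were Plin2, Plin3, Plin5, Cd36, Scarb1, Scarb2, Osbpl6, Pnpla2, Abca1 and Soat1 in the authors' deposited table. Of the 39 genes, 33 lie above the median signal, where calls of the limma fit were more frequent. The share among bright probe sets was not computed for the authors' p-values. Values of the authors' deposited table are not independent of the fit above, since both describe the same comparison.

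The calls near the threshold moved with the setting. The sign of all 16 genes without overlap stayed the same in each alternative run. There were 16 such runs for all but Osbpl3, which had 15 because its probe set lies below the median signal. For genes without overlap, leaving out an array or changing the prior, filter, weights, probe set rule or block could not reverse the sign. Only the renormalizations could have. Plin2 was called in 12 of the 16 alternatives, Abca1 in 11, Cd36 and Plin5 in 10 each and Scarb1 in 7. Plin3 and Osbpl6 were called in 6 each, Plin4 in 4, Scarb2 in 3, Osbpl5 in 3, and Pnpla2 and Soat1 in 1 each. With each array centred on its median, 9 of the 39 genes were called lower and 0 higher, against 4.41% lower and 1.15% higher of all probe sets, and 20.6% of all calls were then higher, against 35.2% as deposited.

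**Figure D5:**
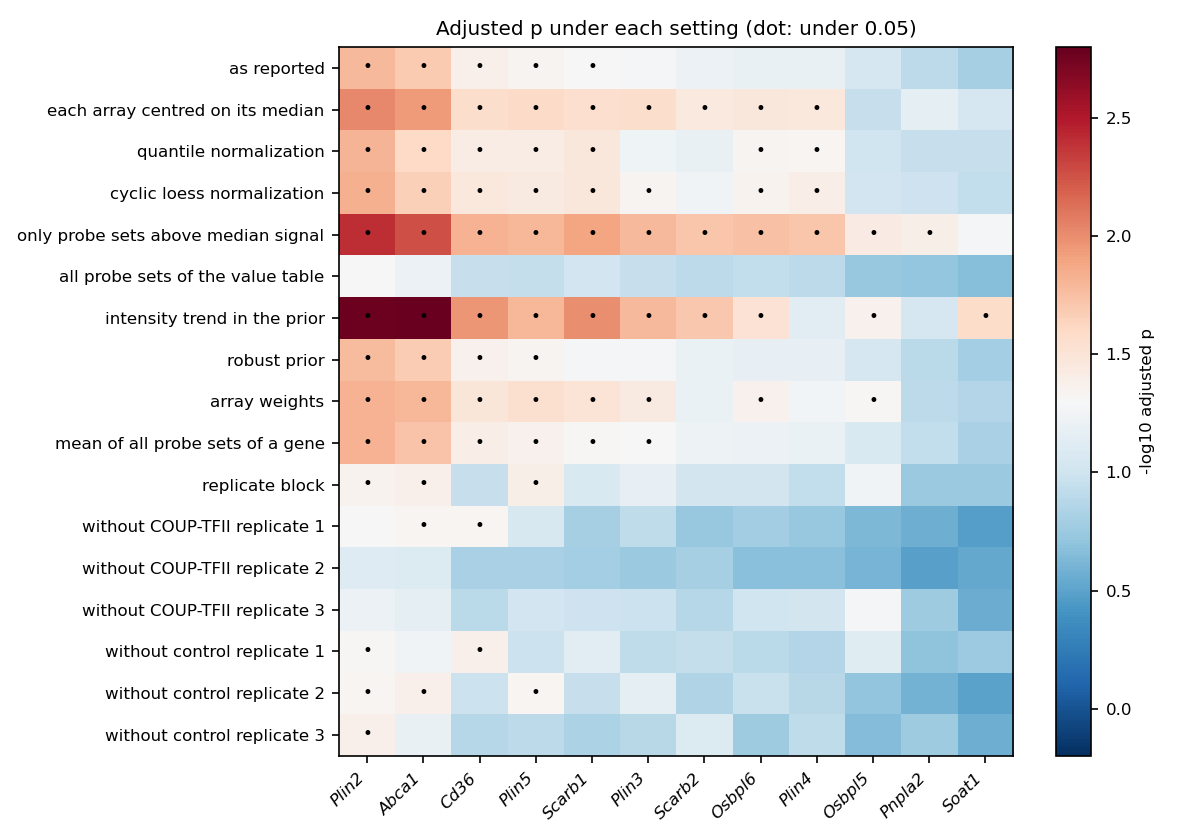
Adjusted p, as its -log10 (colour), of 12 of the 39 genes (columns) for the values as deposited (top row) and under 16 alternatives (rows below), where a dot marks an adjusted p under 0.05. Plin2 has the most dots, and none of the 5 called genes has a dot without COUP-TFII siRNA replicate 2 or 3 or with all 35556 probe sets tested together.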

How the data were processed

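RNA of 6 MA-10 cultures was measured on Affymetrix arrays. The submitters' processing notes name Partek 7.0; how signals were background-corrected and normalized is "not given in the sources used here". The deposited table holds normalized log2 signals of 35556 probe sets (3.15 to 14.3), with no depth, so the number of arrays limits the precision. The authors' deposited tables also give a linear ratio and an unadjusted p-value per probe set, which were only read beside the fit. Groups come from the labels. The 26836 probe sets with a symbol were fitted with limma 3.58.1 (lmFit, eBayes with its default prior, R 4.3.3) with group as the only term, and called at a Benjamini-Hochberg adjusted p under 0.05. SEs and 95% intervals are limma's. The code of the fit was run on data simulated from limma's own model, which does not test how that model suits these arrays. A gene is its brightest probe set with that symbol alone, except Nceh1 and Serpina1a, whose probe sets also carry other symbols. Names, gene order and promoters came from RefSeq (GRCm38.p6). Values are given per array for called genes and for the member of each role with the smallest p; other genes without overlap are named with their differences. Per-array values of Plin1, Plin3, Plin4, Lrp1, Apoe and Osbpl5 were added after they were seen. The members and lists were chosen with earlier results of these data known. Ldaf1 and Insl3 were not matched to a probe set of their own, and Gpat3 was matched by an older symbol. Alternatives changed normalization, filter, prior, array weights, probe set rule, the block and the arrays used.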

Additional observations from a re-analysis of the deposited data

How the results depend on the processing

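As deposited, 5 of the 39 genes were called lower and 0 higher. The share of all probe sets called was 2.92% lower and 1.59% higher as deposited. With arrays centred on their medians it was 4.41% and 1.15%. For the other settings this share was not computed. The counts below, for the 39 and the 73 further genes, therefore have no background beside them under those settings. The count lower was 9 with arrays centred on their medians, 7 after quantile normalization, 8 after cyclic loess, 10 with only the probe sets above the median signal, 9 with an intensity trend in the prior, 7 with array weights, 4 with a robust prior, 6 with the mean of all probe sets of a gene and 0 with all 35556 probe sets (no gene then below the threshold; 12 were lower at an unadjusted p under 0.05 in the limma fit of the 26836). Leaving out 1 array gave 0 to 3 called lower (0 without COUP-TFII siRNA replicate 2 or 3) and 0 called higher, with fewer arrays behind each test. The count higher was 1, Osbpl5, with only bright probe sets, with the trend and with array weights. With the replicate number as a block the count lower was 3 and the count higher 0. Deviations of same-numbered arrays had correlations of 0.108, -0.0482 and 0.172, and those of differently numbered arrays ran from -0.225 to 0.128. With 3 arrays per group these values cannot decide whether the numbers pair the arrays. Genes lower without overlap numbered 14 as deposited and 13 to 15 after renormalization, or 14 to 17 with 1 array left out. Those higher without overlap numbered 2, or 1 after median centring, quantile normalization and cyclic loess, and 2 to 6 with 1 array left out. Leaving out an array cannot make separated groups overlap, so it could only keep or raise these counts. The shares of all probe sets without overlap were computed as deposited only (12.2% lower, 13% higher). The median difference was -0.034, -0.064 with median centring and -0.046 to -0.013 with 1 array left out. Of the 73 further genes 3 were called lower, 7 with only bright probe sets, 5 with the trend and 1 to 3 with 1 array left out. The 3 called higher became 5 after quantile normalization, cyclic loess, with only bright probe sets, with the trend, with array weights and with the mean of probe sets, 2 with median centring, 1 with all probe sets and 1 to 3 with 1 array left out. Nr2f2 stayed called in all 16 alternatives (adjusted p 0.00117 to 0.0463). Beyond what the smaller number of arrays or of probe sets sets by construction, the cause of these moves was not tested.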
